A study of Mus musculus with 11 samples.

Results

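The immediate early genes described here were Fos, Fosb, Fosl2, Jun, Junb, Jund, Egr1, Nr4a1, Ier2 and Npas4, 10 of the 55487 genes quantified, matched to their symbols through the Ensembl identifiers. They were read in RNA-seq libraries of beta cells sorted from pancreatic islets of C57BL/6 mice, which were C57BL/6JRj males aged 12 weeks. PD-L1high beta cells (4 libraries, replicates 1 to 4) and PD-L1low beta cells (3 libraries, replicates 2 to 4) came from islets exposed to IFNγ at 50 pg/mL during 20 h of culture and differed by the amount of the surface protein PD-L1 at the sort. Control beta cells (4 libraries, replicates 1 to 4) came from islets that received no IFNγ. The cells of all 3 groups were dispersed with enzymes, stained and sorted alive on EpCam, low CD24 and CD71 after removal of blood and endothelial cells. No library of undispersed islets was analysed here, so the part of each level that belongs to the dispersal and the part present in the islet cannot be told apart.

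Immediate early genes are transcribed within minutes of a stimulus, from factors already present in the cell, and need no new protein. In beta cells, glucose, calcium entry and cyclic AMP induce them through kinases that act on CREB and on SRF with its partners, and enzymatic dispersal of tissue is widely known to induce them as well. FOS proteins pair with JUN proteins to form AP-1, which binds DNA, while EGR1, NR4A1 and NPAS4 bind DNA through domains of their own.

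Promoters were taken from RefSeq (GRCm38.p6), which gave 8 of the 10 genes, and only the 250 bases before the start were read. The sequences of Fos, Fosb and Nr4a1 are shown because these 3 genes had the most negative fold changes of PD-L1high cells below, and that of Jun because its log2 fold changes were 0.19 against control and -0.03 against PD-L1low. Capitals mark the letters TGACG, the half-site of the cyclic AMP response element bound by CREB, and GCGNGGGCG, the site of EGR proteins, on either strand.

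Fos, chromosome 12, 85473640 to 85473889, plus strand: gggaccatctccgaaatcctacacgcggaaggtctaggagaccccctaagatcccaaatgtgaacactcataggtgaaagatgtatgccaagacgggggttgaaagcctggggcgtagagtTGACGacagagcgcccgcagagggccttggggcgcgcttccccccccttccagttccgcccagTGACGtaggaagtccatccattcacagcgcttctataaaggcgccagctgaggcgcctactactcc
Fosb, chromosome 7, 19310046 to 19310295, minus strand: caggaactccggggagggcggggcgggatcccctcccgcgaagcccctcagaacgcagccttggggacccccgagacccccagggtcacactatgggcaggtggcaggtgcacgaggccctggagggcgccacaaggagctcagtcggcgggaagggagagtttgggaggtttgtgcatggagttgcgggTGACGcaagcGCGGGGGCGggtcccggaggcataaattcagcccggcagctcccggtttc
Nr4a1, chromosome 15, 101266596 to 101266845, plus strand: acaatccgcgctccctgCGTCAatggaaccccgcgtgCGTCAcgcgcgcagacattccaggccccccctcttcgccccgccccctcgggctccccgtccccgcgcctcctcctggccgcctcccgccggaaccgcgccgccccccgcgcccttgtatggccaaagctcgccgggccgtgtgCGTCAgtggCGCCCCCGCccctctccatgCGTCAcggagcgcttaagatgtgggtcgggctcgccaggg
Jun, chromosome 4, 95052223 to 95052472, minus strand: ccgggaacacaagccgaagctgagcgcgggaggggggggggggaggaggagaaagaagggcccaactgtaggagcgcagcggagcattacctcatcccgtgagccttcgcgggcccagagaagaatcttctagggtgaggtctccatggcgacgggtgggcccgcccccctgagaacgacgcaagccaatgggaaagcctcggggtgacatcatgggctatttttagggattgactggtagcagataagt

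TGACG lay at 2 places in the Fos stretch, the nearer 62 to 66 bases before the start, at 1 place in that of Fosb and at 4 in that of Nr4a1. Jun had no match to either motif. These sequences were picked by fold change, so a link between motif and fold change was not tested. In PD-L1high versus control, Junb held TGACG with a log2 fold change of -0.14. Fosl2 lacked it at -0.61 and Jund lacked it at -0.17. Of the 8 promoters, 5 held TGACG (Fos, Fosb, Junb, Npas4 and Nr4a1), beside 17.8% of all 32851 promoters of this length, and 3 held the EGR site (Fosb, Fosl2 and Nr4a1), beside 4.7% of all. None of the 8 held the whole element TGACGTCA (1.55% of all), the AP-1 site TGACTCA (4.46%) or the NR4A site AAAGGTCA (1.34%). Nor did any hold the CArG box of SRF (1.47%) or TTCNNNGAA, the site of STAT proteins (7.02%). With shares this low, 0 of 8 is not a finding about the members. TGACG is part of the whole element, and other pairs of these motifs were not kept apart where they overlapped. In GENCODE M21, which places some starts further upstream, the Npas4 and Fosl2 stretches lie wholly within the first exon of a longer transcript of the same gene, the Nr4a1 stretch lies in an intron of its longer transcript, and the last few bases of the Fosb stretch are exonic. The Jun stretch lies in an intron of the antisense gene Junos. The Jund stretch goes the other way: it ends at base 70697738 of chromosome 8, and GENCODE M21 starts Jund downstream, at base 70698949.

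In GENCODE M21 on GRCm38, Fos (ENSMUSG00000021250) spans bases 85473890 to 85477273 of chromosome 12 and Fosb (ENSMUSG00000003545) 19302696 to 19310051 of chromosome 7. Nr4a1 (ENSMUSG00000023034) spans 101254269 to 101274795 of chromosome 15, Ier2 (ENSMUSG00000053560) 84661331 to 84662852 of chromosome 8 and Jun (ENSMUSG00000052684) 95049034 to 95052222 of chromosome 4. All 10 members are annotated as protein-coding genes.

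Libraries held 10422038 to 15810817 expected counts, and the mitochondrially encoded genes took 5.54% to 13.3% of them, the most in control replicate 1. Beta cell markers were strong in every library, with sums over 10 genes of 63754 to 92506 CPM in PD-L1high, 74214 to 79811 CPM in PD-L1low and 62761 to 96424 CPM in control cells. The leukocyte genes Adgre1, Lyz2, Cd3e and Itgam and the endothelial gene Cdh5 had no count in any library, and the 7 leukocyte genes summed to 3.10 to 5.47 CPM in PD-L1high, 2.40 to 3.99 CPM in PD-L1low and 2.78 to 4.48 CPM in control cells. Genes of other endocrine cells were present: 5 alpha cell genes summed to 561 to 1483 CPM in PD-L1high, 349 to 353 CPM in PD-L1low and 323 to 1387 CPM in control cells, the 2 PP cell genes to 233 to 562 CPM, 26.8 to 33.5 CPM and 150 to 382 CPM in the same groups, and 3 delta cell genes to 11.4 to 39.4 CPM, 3.51 to 9.11 CPM and 6.70 to 33.2 CPM. PD-L1high and PD-L1low libraries did not overlap in any of these sums, and the alpha cell hormone gene Gcg passed edgeR's test of PD-L1high versus PD-L1low cells, at 445 to 1308 CPM in PD-L1high and 170 to 230 CPM in PD-L1low libraries. The 3 duct genes summed to 370 to 785 CPM in PD-L1high, 505 to 553 CPM in PD-L1low and 401 to 545 CPM in control cells. Of these, Krt19 was at only 0.296 to 1.29 CPM over all libraries, and Krt7 and Spp1 made up the rest. The part of other cell types in the results below was not tested. In sorted bulk samples, fewer cells that express a gene and less RNA per cell cannot be told apart.

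TPM values, which are scaled by gene length and by the library total, allow the 10 genes to be ordered. Egr1 was the most abundant, with a mean of 45.3 ± 17.6 TPM over all libraries (SD, n = 11), followed by Jund at 40.7 ± 10.2, Fos at 34.6 ± 16.7, Jun at 21.6 ± 8.62, Junb at 18.4 ± 5.71 and Ier2 at 10.6 ± 3.09 TPM. Fosb averaged 5.03 ± 3.84 TPM, Nr4a1 3.25 ± 1.91, Fosl2 1.53 ± 0.624 and Npas4 0.209 ± 0.212 TPM (SD, n = 11). The ranges of every pair of neighbours in this order overlapped. Within single libraries, Junb lay above Ier2 and Ier2 above Fosb in 11 of 11, whereas Egr1 lay above Jund in only 5 of 11. Egr1 exceeded 89.9% and Fos 86.1% of the 16252 genes tested below in mean TPM.

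Comparisons between libraries used CPM, counts relative to the library total, scaled by the trimmed mean of M values (TMM). Npas4, whose product is induced by depolarization, had 1 to 20 counts per library and 80 in all, too few for the test. It reached 0.0795 to 0.727 CPM in PD-L1high, 0.0702 to 1.66 CPM in PD-L1low and 0.0896 to 1.32 CPM in control cells, with the groups fully overlapping. The other 9 genes were tested.

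**Figure D1:**
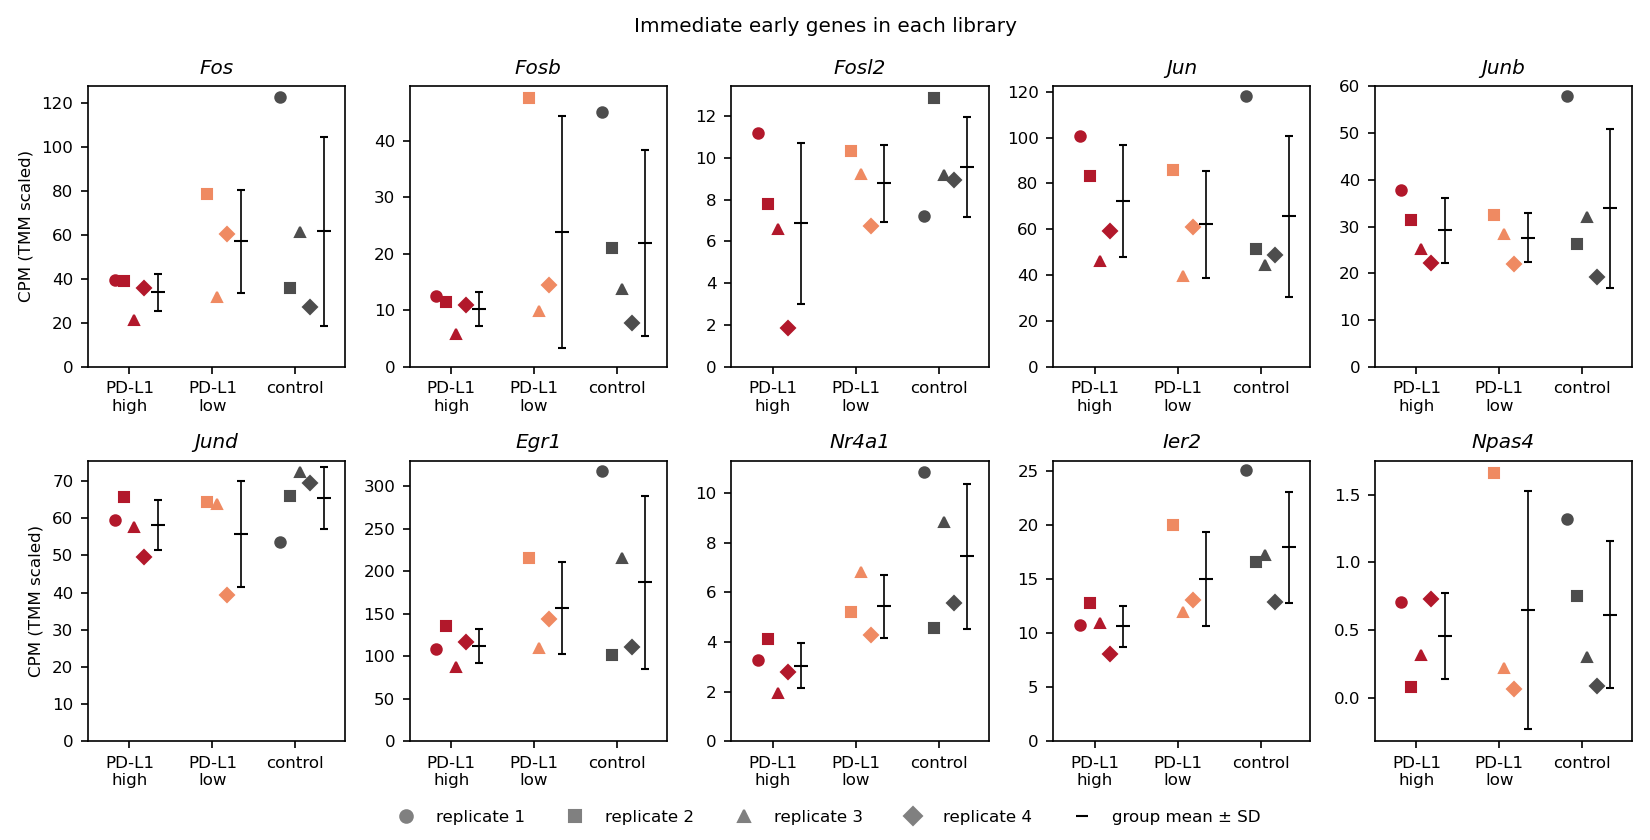
TMM-scaled CPM of the 10 immediate early genes, 1 panel per gene, in PD-L1high, PD-L1low and control libraries; each point is a library, its shape gives the replicate number and its colour the group, and the bar to the right of each group is the mean ± SD. Control replicate 1 is the highest point for Fos, Egr1, Jun, Junb, Nr4a1 and Ier2, and the 4 PD-L1high libraries lie lowest as a group for Nr4a1.

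The first comparison set beta cells that carried much PD-L1 after IFNγ against cells of untreated islets. In PD-L1high versus control cells, none of the 9 tested genes passed the adjusted threshold of 0.05 of edgeR's quasi-likelihood test, where 0.991% of all 16252 genes did in either direction. Their fold changes were negative for 8 of 9, against 53% of all genes. Their median log2 fold change was -0.65, against -0.02 over all genes. Several members moved together over the libraries, as given below, so these 9 values are not separate observations. Nr4a1, Ier2 and Fosb had unadjusted p-values under 0.05, as did 7.65% of all genes. DESeq2 with the same terms also called 0 of the 9, and 249 of all genes. Its adjusted p-values were 0.0501 for Nr4a1 and 0.0679 for Ier2. In contrast, limma-voom called 3 of the 9 (Fosb, Ier2 and Nr4a1), and 245 of all genes.

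Nr4a1, the orphan nuclear receptor NUR77, had the most negative of these fold changes. It was measured at 3.28, 4.13, 1.97 and 2.80 CPM in PD-L1high cells, at 5.22, 6.80 and 4.28 CPM in PD-L1low cells and at 10.9, 4.57, 8.82 and 5.55 CPM in control cells, from 25 to 146 counts per library. All 4 PD-L1high libraries lay below all 4 control libraries, as for 1.61% of all genes, and below all 3 PD-L1low libraries, as for 3.59%. The log2 fold change of PD-L1high versus control was -1.24 (SE 0.345, 95% interval -1.97 to -0.50), with an adjusted p of 0.188 in edgeR's test. It was lower in PD-L1high than in control cells in 4 of 4 replicate numbers, by 0.15 to 2.17 on the log2 scale. Equal replicate numbers were not shown to pair the libraries. On the TPM scale the groups overlapped, with 1.05 to 3.66 TPM in PD-L1high, 2.37 to 4.17 TPM in PD-L1low and 2.53 to 7.55 TPM in control cells.

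Ier2, a small nuclear protein induced by growth factors, had 10.8, 12.8, 10.9 and 8.10 CPM in PD-L1high cells, 20.0, 11.98 and 13.1 CPM in PD-L1low cells and 25.1, 16.6, 17.2 and 12.9 CPM in control cells. The 4 PD-L1high libraries again lay below the 4 control libraries, by a narrow margin between PD-L1high replicate 2 and control replicate 4, and overlapped PD-L1low. The log2 fold change of PD-L1high versus control was -0.74 (SE 0.195, 95% interval -1.15 to -0.32) with an adjusted p of 0.137, the smallest of the 9 in edgeR's test. Ier2, like Nr4a1, was lower in 4 of 4 replicate numbers, which 7.83% of all genes showed. In TPM its groups overlapped, at 5.40 to 10.6 in PD-L1high and 10.01 to 14.3 in control cells.

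Among the FOS genes, Fos had 39.3, 38.9, 21.2 and 35.7 CPM in PD-L1high cells, 78.7, 31.9 and 60.2 CPM in PD-L1low cells and 122, 35.6, 61.1 and 27.0 CPM in control cells. The PD-L1high libraries were close together, while the other 2 groups each spread more widely and overlapped them. Fosb, its close relative, had 12.6, 11.5, 5.74 and 10.9 CPM in PD-L1high cells, 47.5, 9.91 and 14.4 CPM in PD-L1low cells and 45.1, 21.1, 13.8 and 7.70 CPM in control cells. Its groups overlapped too, with PD-L1low replicate 2 and control replicate 1 far above the rest. The log2 fold changes of PD-L1high versus control were -0.75 for Fos (SE 0.449, 95% interval -1.84 to 0.33) and -0.92 for Fosb (SE 0.386, 95% interval -1.79 to -0.05), with adjusted p-values of 0.766 and 0.626 in edgeR's test. Fosl2, which encodes FRA-2, ran from 1.87 to 11.2 CPM in PD-L1high, 6.74 to 10.3 CPM in PD-L1low and 7.21 to 12.9 CPM in control cells, the lowest value being PD-L1high replicate 4 with 18 counts. Its log2 fold change was -0.61 (SE 0.340).

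Egr1, a zinc finger factor induced by growth factors and calcium, followed Fos closely. It had 108, 136, 87.9 and 117 CPM in PD-L1high cells, 216, 110 and 144 CPM in PD-L1low cells and 318, 102, 216 and 111 CPM in control cells. The groups overlapped, and the log2 fold change of PD-L1high versus control was -0.65 (SE 0.408, 95% interval -1.65 to 0.34).

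The JUN genes, which encode the partners of FOS proteins, differed less. Jun ran from 46.1 to 101 CPM in PD-L1high, 39.4 to 85.9 CPM in PD-L1low and 44.3 to 118 CPM in control cells, and its log2 fold change of PD-L1high versus control was 0.19 (95% interval -0.12 to 0.50), the one positive value among the 9. Junb gave -0.14 (95% interval -0.47 to 0.20) and Jund, the JUN gene least dependent on stimulation, -0.17 (95% interval -0.47 to 0.12). These intervals leave out changes of 2-fold in either direction for all 3 genes. Jun overlaps the antisense gene Junos, Junb overlaps Prdx2 and Jund overlaps Gm11175 on opposite strands, and whether reads were assigned by strand is not given in the sources used here.

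Control replicate 1 moved these values. Without it the log2 fold changes of PD-L1high versus control were -1.06 for Nr4a1, -0.57 for Ier2, -0.57 for Fosb, -0.43 for Fos and -0.35 for Egr1, and Junb turned to 0.031; the adjusted p-values were 0.684 for Nr4a1 and 0.667 for Ier2 by edgeR's test. Fosl2 moved both ways with the library left out: it was at -1.04 without control replicate 1 and also without PD-L1high replicate 1, but at -0.24 without PD-L1high replicate 4, and over all left-out libraries and replicate numbers it lay between -1.04 and -0.19. Calls appeared with no filter on low counts (5 of the 9: Egr1, Fos, Fosb, Ier2 and Nr4a1), with limma-voom (3, above) and with DESeq2 without the replicate term (1, Nr4a1). With no filter, 328 of all genes were called.

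**Figure D2:**
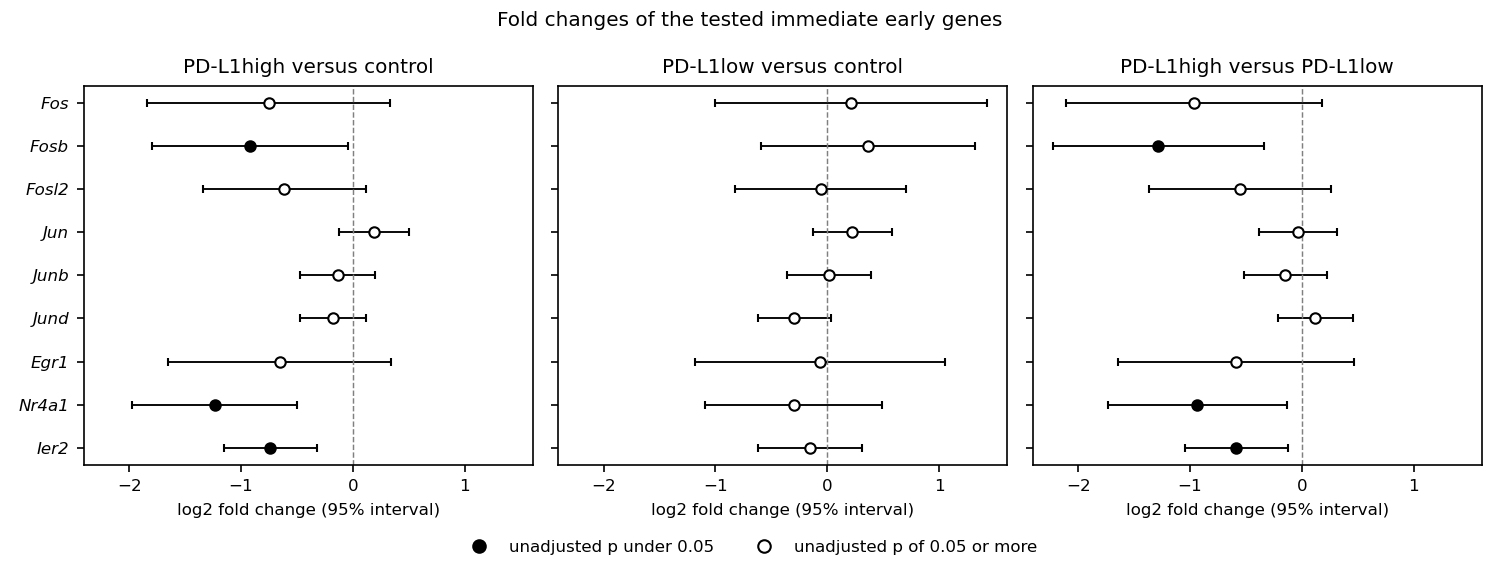
Fold changes of the 9 tested immediate early genes on the log2 scale with 95% intervals from edgeR's quasi-likelihood fit, in PD-L1high versus control, PD-L1low versus control and PD-L1high versus PD-L1low; filled points have an unadjusted p under 0.05. Of the 9 values, 8 are below 0 in each comparison of PD-L1high cells, and all intervals of PD-L1low versus control include 0.

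The 2 sorted fractions of the same IFNγ-treated islets were compared next. In PD-L1high versus PD-L1low cells, 0 of the 9 genes passed the threshold in edgeR's test, where 0.732% of all genes did, and Fosb, Ier2 and Nr4a1 had an unadjusted p under 0.05, as did 8.52% of all genes. Fold changes were negative for 8 of 9, against 50.5% of all genes, with a median log2 fold change of -0.58 against -0.00 over all. Here too the 9 values are not separate observations. DESeq2 and limma-voom each called 1 of the 9, Fosb, and 202 and 180 of all genes. The PD-L1high libraries also enter the comparison with control, so the 2 results share samples.

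Fosb had the most negative value, with a log2 fold change of -1.28 (SE 0.416, 95% interval -2.22 to -0.34) and an adjusted p of 0.436 in edgeR's test. The difference was -2.04 in replicate 2, -0.79 in replicate 3 and -0.40 in replicate 4. Fos gave -0.96 (SE 0.475, 95% interval -2.11 to 0.18), with differences of -1.01, -0.59 and -0.75 in replicates 2, 3 and 4. Within replicate numbers, then, Fos and Fosb were lower in PD-L1high than in PD-L1low cells each time although the groups overlapped when pooled. Equal replicate numbers were, however, not shown to pair the libraries. Against control, Fos and Fosb were not lower each time: Fos in PD-L1high cells differed by -1.64, 0.13, -1.53 and 0.41 in replicates 1 to 4, and Egr1 was likewise lower in 2 and higher in 2, while Fosb and Fosl2 were lower in 3 and higher in 1.

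Nr4a1 gave -0.93 (SE 0.375, 95% interval -1.74 to -0.13), Egr1 -0.59 (SE 0.433), Ier2 -0.58 (SE 0.215, 95% interval -1.04 to -0.13) and Fosl2 -0.55 (SE 0.382). Without PD-L1high replicate 4, Fosl2 was at -0.13 in this comparison. Fos, Fosb, Fosl2, Egr1, Nr4a1 and Ier2 were each lower in PD-L1high than in PD-L1low cells in 3 of 3 replicate numbers, which 16% of all genes showed. Junb was at -0.15, Jun at -0.03 and Jund at 0.12. Without PD-L1high replicate 4, Fosb reached -1.77 with an adjusted p of 0.0243 in edgeR's test, and a fit of only these 2 groups called Fos with -0.79 and an adjusted p of 0.0215 and left Fosb at 0.261.

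**Figure D3:**
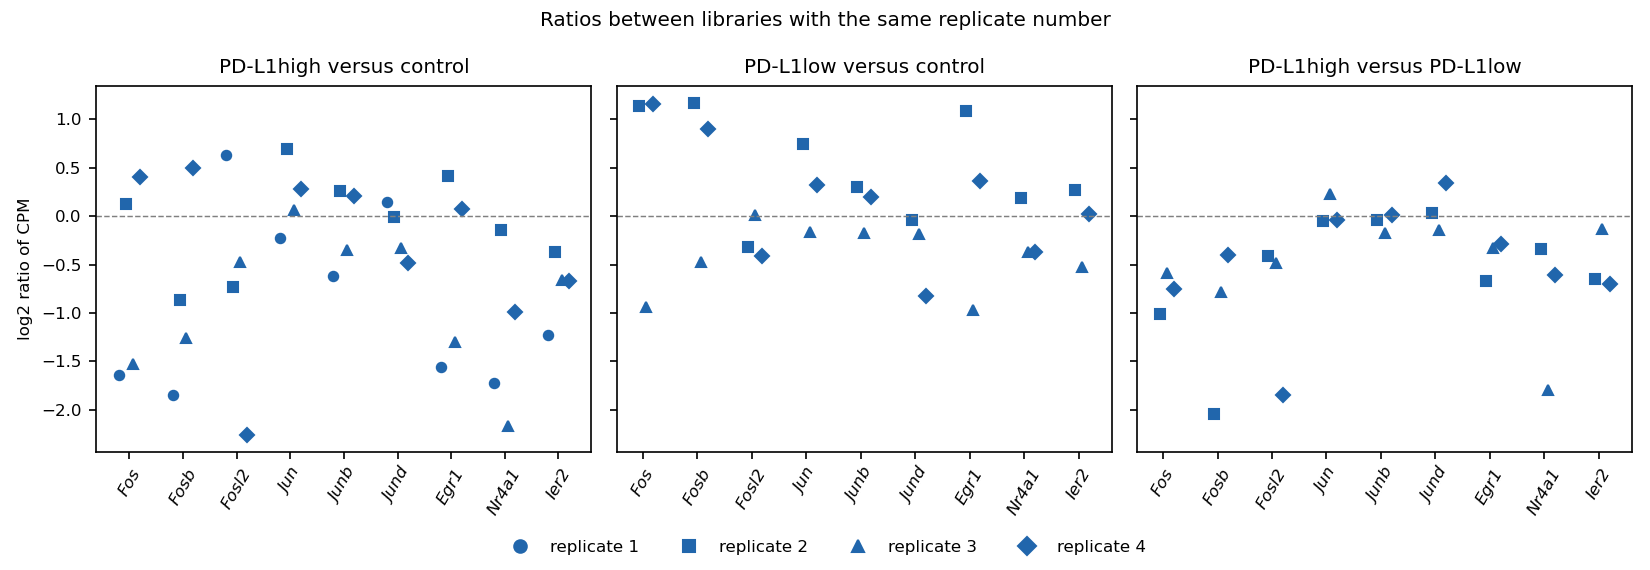
Differences in log2 CPM between libraries of the same replicate number, for the 9 tested genes; each point is a replicate number, and replicate 1 has no PD-L1low library. In PD-L1high versus PD-L1low the FOS genes, Egr1, Nr4a1 and Ier2 lie below 0 at all 3 replicate numbers, whereas in PD-L1low versus control Fos spans -0.94 to 1.16.

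PD-L1low and control cells differ in exposure to IFNγ and in the gate on PD-L1, which the study describes for treated islets only. Exposure and gate cannot be told apart here. Fold changes of PD-L1low versus control had both signs. No gene of the 9 passed the threshold or had an unadjusted p under 0.05 in edgeR's test, beside 0.08% and 2.1% of all genes. DESeq2 and limma-voom also called 0 of the 9, and 47 and 27 of all genes. Fold changes were negative for 5 and positive for 4, where 49.9% of all genes were negative, with a median log2 fold change of -0.06 against 0.00 over all genes. They ran from 0.36 for Fosb (95% interval -0.59 to 1.32) and 0.21 for Fos (95% interval -1.001 to 1.43) to -0.29 for Jund (95% interval -0.62 to 0.03) and -0.30 for Nr4a1 (95% interval -1.10 to 0.49). These intervals are wide enough to hold a 2-fold change for Fos, Fosb and Nr4a1, and so was that of Egr1 (-1.19 to 1.06). Fos differed by 1.14 in replicate 2, -0.94 in replicate 3 and 1.16 in replicate 4, so the replicates went both ways.

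The genes varied within groups. The standard deviation of log2 CPM within groups was 0.93 for Fosb, larger than for 84.2% of the tested genes, 0.72 for Fos, larger than for 75.2%, and 0.71 for Fosl2, against a median of 0.33 over all tested genes. Jund, at 0.26, was the one member below that median, and Ier2, at 0.35, was near it.

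Variation between replicate numbers was tested in the same fit. After condition was taken out, 1 of the 9 genes, Jun, differed between replicate numbers (adjusted p of 0.0153, edgeR's test), where 0.4% of all genes did. Jun was at 101 CPM in PD-L1high and 118 CPM in control replicate 1, and at 46.1, 39.4 and 44.3 CPM in PD-L1high, PD-L1low and control replicate 3. In CPM, both libraries of replicate 1 lay above the other 9 libraries. In TPM, control replicate 1 was at 29.3, below PD-L1high replicate 2 at 30.0 and PD-L1low replicate 2 at 29.4. Junb had an adjusted p of 0.0697 and Fosb 0.246, both with an unadjusted p under 0.05, as 13.7% of all genes had. The call of Jun was lost in edgeR's test without control replicate 1 (adjusted p of 0.142), control replicate 4 (0.0787) or PD-L1high replicate 3 (0.0584), and without all of replicate 1, 3 or 4 (0.244, 0.0682 and 0.0561). DESeq2 called Fosb, Jun and Junb, and 757 of all genes.

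**Figure D4:**
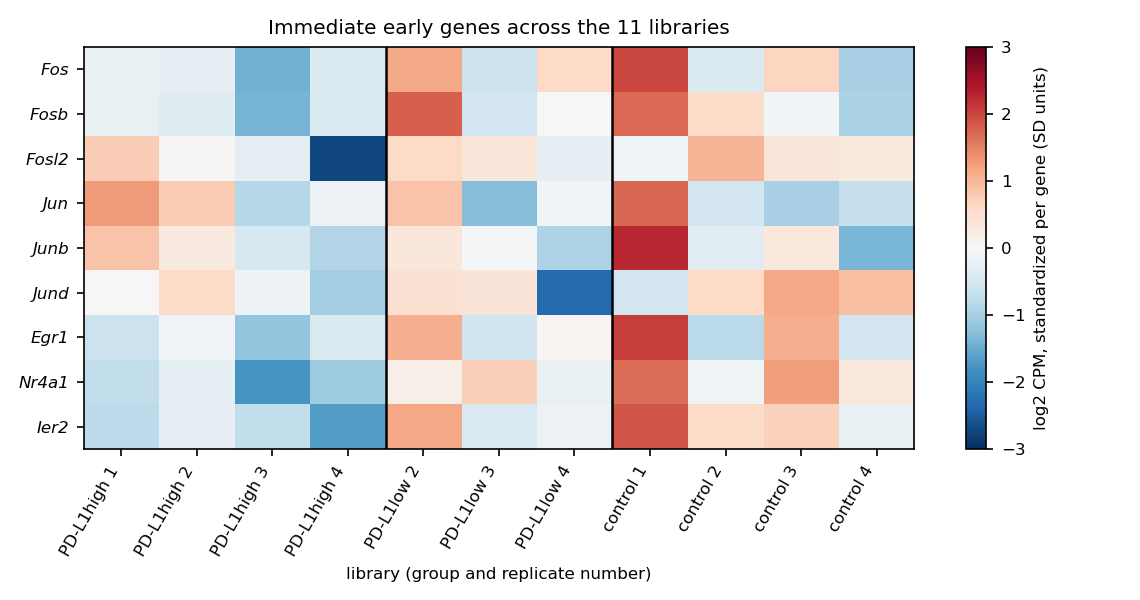
Log2 CPM of the 9 tested genes in the 11 libraries, each gene standardized to mean 0 and SD 1 over the libraries; columns run from PD-L1high through PD-L1low to control libraries, rows are genes, red is high and blue is low. Control 1 and PD-L1low 2 are red over most genes, and PD-L1high 3 and PD-L1high 4 are blue over most.

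Taken over the 9 genes, the mean of the standardized log2 CPM was highest in control replicate 1, at 1.40, followed by PD-L1low replicate 2 at 0.84 and control replicate 3 at 0.49. It was lowest in PD-L1high replicate 4, at -0.98, and PD-L1high replicate 3, at -0.92, while PD-L1high replicates 1 and 2 lay in the middle at 0.03 and 0.05. Control replicate 1 held the highest CPM of 6 of the 9 genes, where it held that of 25.5% of all tested genes, and PD-L1high replicate 3 the lowest of 4, where it held that of 5.13%. Control replicate 1 also held the lowest CPM of 20.2% of all tested genes, but of 0 of the 9. In TPM, control replicate 1 was highest only for Fos and Egr1 of these 6 genes. Jun and Junb were then highest in PD-L1high replicate 1, Nr4a1 in control replicate 3 and Ier2 in PD-L1low replicate 2. Mitochondrial shares did not run in the order of the mean standardized values: they were 13.3% in control replicate 1 and 11.9% in PD-L1high replicate 4, the libraries at the 2 ends.

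The profile of Fos over the 11 libraries was most like those of Chd9 and Egr1 (Pearson's r of log2 CPM of 0.95 for both), Akap8l (0.94), Peg3 (0.94), Gm43336 (0.93) and Brwd1 (0.92), all read from the same 11 libraries with their shared depth and scaling. Among the members, Egr1 was followed by Fosb at 0.88, Ier2 at 0.77, Junb at 0.69, Nr4a1 at 0.68 and Jun at 0.63, while Fosl2 was at 0.09 and Jund at -0.22. The mean profile of the 9 genes was most like Pcdhga6 (0.98), Gm4876 and Col6a6 (0.95 each), Gm45487, Dmxl2 and Herc1 (0.94 each). These values describe these libraries only.

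Genes related by function were read from lists. Of 21 other immediate early transcription factors, 15 were tested and 0 passed in any of the 3 comparisons, and their median log2 fold change was 0.01 in PD-L1high versus control and 0.19 in PD-L1high versus PD-L1low. At an unadjusted p under 0.05 there were 1, 0 and 2 in PD-L1high versus control, PD-L1low versus control and PD-L1high versus PD-L1low. Over all genes the shares were 7.65%, 2.1% and 8.52% in the same order, and they stand beside each list below as well. The cyclic AMP-responsive factor Crem had a log2 fold change of 0.45 (SE 0.133, adjusted p of 0.228 in edgeR's test) in PD-L1high versus control and 0.48 (SE 0.150) in PD-L1high versus PD-L1low. Ier3, a stress-induced gene, was at 4.95 to 8.19 CPM in PD-L1high, 1.33 to 4.14 CPM in PD-L1low and 3.93 to 5.25 CPM in control cells, with a log2 fold change of 1.18 (SE 0.378, adjusted p of 0.340) in PD-L1high versus PD-L1low. These values had the opposite sign to those of most of the 9 genes.

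Of 22 feedback regulators, which include the DUSP phosphatases that switch off MAP kinases, 20 were tested and 0 passed in any comparison, with 2, 1 and 5 at an unadjusted p under 0.05 in the same order of comparisons. Dusp10 had a log2 fold change of 0.46 (SE 0.141) and the antiproliferative gene Btg2 -0.49 (SE 0.172) in PD-L1high versus PD-L1low, with adjusted p-values of 0.290 and 0.430 in edgeR's test. Of 22 upstream factors and kinases all were tested and 0 passed, with 3, 0 and 1 at an unadjusted p under 0.05, among them Mapk9 at 0.27 (SE 0.114) and Mapk14 at 0.27 (SE 0.113) in PD-L1high versus control. Mef2c, a MADS box factor with few counts, was at 0.865 to 4.47 CPM in PD-L1high, 0.0702 to 0.248 CPM in PD-L1low and 0.181 to 1.40 CPM in control cells. The PD-L1high and PD-L1low libraries did not overlap for Mef2c, with PD-L1high higher, as for 4.41% of all genes, and DESeq2 called that difference (adjusted p of 0.0195) where edgeR's test did not (0.187).

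Of 11 dimer partners of AP-1 proteins, 6 were tested and 0 passed, with 1, 0 and 1 at an unadjusted p under 0.05. Both were Mafk, a small MAF protein, with a log2 fold change of 0.50 (SE 0.139, adjusted p of 0.175 in edgeR's test) in PD-L1high versus control and 0.57 (SE 0.157, adjusted p of 0.189) in PD-L1high versus PD-L1low.

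Heat shock genes, chaperones that respond to misfolded protein and to handling of tissue, were read as a second stress list. Of 15, 14 were tested and 0 passed, with 0, 0 and 2 at an unadjusted p under 0.05, and 11 of 14 fold changes were positive in each comparison of PD-L1high cells, with medians of 0.13 and 0.14. The inducible chaperone Hspa1b was at 1.67 to 3.43 CPM in PD-L1high, 4.36 to 9.69 CPM in PD-L1low and 1.32 to 6.09 CPM in control cells. Its PD-L1high and PD-L1low libraries did not overlap, with PD-L1high lower, as for 3.59% of all genes, and it had a log2 fold change of -1.32 (SE 0.451, adjusted p of 0.399 in edgeR's test), and reads of its near-identical copy Hspa1a may be shared with it. The cochaperone Bag3 was at 0.54 (SE 0.211) in the same comparison, so the 2 heat shock genes with an unadjusted p under 0.05 had opposite signs.

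Early cytokine response genes were the one list of the 6 with calls between groups. Of 12 tested, 1 passed, Irf1, a transcription factor of the IFNγ response, which rose in PD-L1high versus control cells and was higher in PD-L1high than in PD-L1low cells. In PD-L1low versus control cells 0 passed in edgeR's test, where Irf1 had a log2 fold change of 0.63 and an adjusted p of 0.329, and DESeq2 called Irf1 there (adjusted p of 0.0461). At an unadjusted p under 0.05 there were 8, 1 and 7 of the 12 in PD-L1high versus control, PD-L1low versus control and PD-L1high versus PD-L1low. The shares of all genes were 7.65%, 2.1% and 8.52%. Irf1 was at 105 to 148 CPM in PD-L1high, 44.9 to 54.5 CPM in PD-L1low and 30.4 to 45.4 CPM in control cells, and its log2 fold changes were 1.80 in PD-L1high versus control and 1.17 in PD-L1high versus PD-L1low (adjusted p of 7.19e-07 and 0.000446 in edgeR's test). Tnfaip3, an inhibitor of NF-kappaB signalling, was at 3.22 to 31.5 CPM in PD-L1high, 2.67 to 9.69 CPM in PD-L1low and 4.39 to 6.67 CPM in control cells. Its log2 fold change of PD-L1high versus control was 1.36 (SE 0.362) with an adjusted p of 0.161 in edgeR's test, but it was called in 6 of 26 alternatives: by DESeq2 (0.0146) and limma-voom (0.000537) with the replicate term, with no filter, and in edgeR's test without PD-L1high replicate 4 (0.00749), control replicate 4 (0.0204) or all of replicate 4 (0.00413). Nfkbia, which encodes the NF-kappaB inhibitor IκBα, had a log2 fold change of 1.01 (SE 0.294) in PD-L1high versus PD-L1low with an adjusted p of 0.276, and was called in 3 of 26 alternatives (no filter, only the 2 groups compared, and without control replicate 2). Cebpd, a C/EBP factor, was at 0.66 (SE 0.214, adjusted p of 0.336) in PD-L1high versus control, and Cish, a suppressor of cytokine signalling, at 0.52 (SE 0.167, adjusted p of 0.330) in PD-L1high versus PD-L1low. Of the 12, Cebpd and Nfkbiz differed between replicate numbers (adjusted p of 0.0261 and 0.0239, edgeR's test), where 0.4% of all genes did.

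Cd274, which encodes the protein the cells were sorted on, had log2 fold changes of 3.42 in PD-L1high versus control, 0.94 in PD-L1low versus control and 2.48 in PD-L1high versus PD-L1low, all called in edgeR's test. The call in PD-L1low versus control (adjusted p of 0.0394) held in 14 of 26 alternatives, with adjusted p-values up to 0.440.

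**Figure D5:**
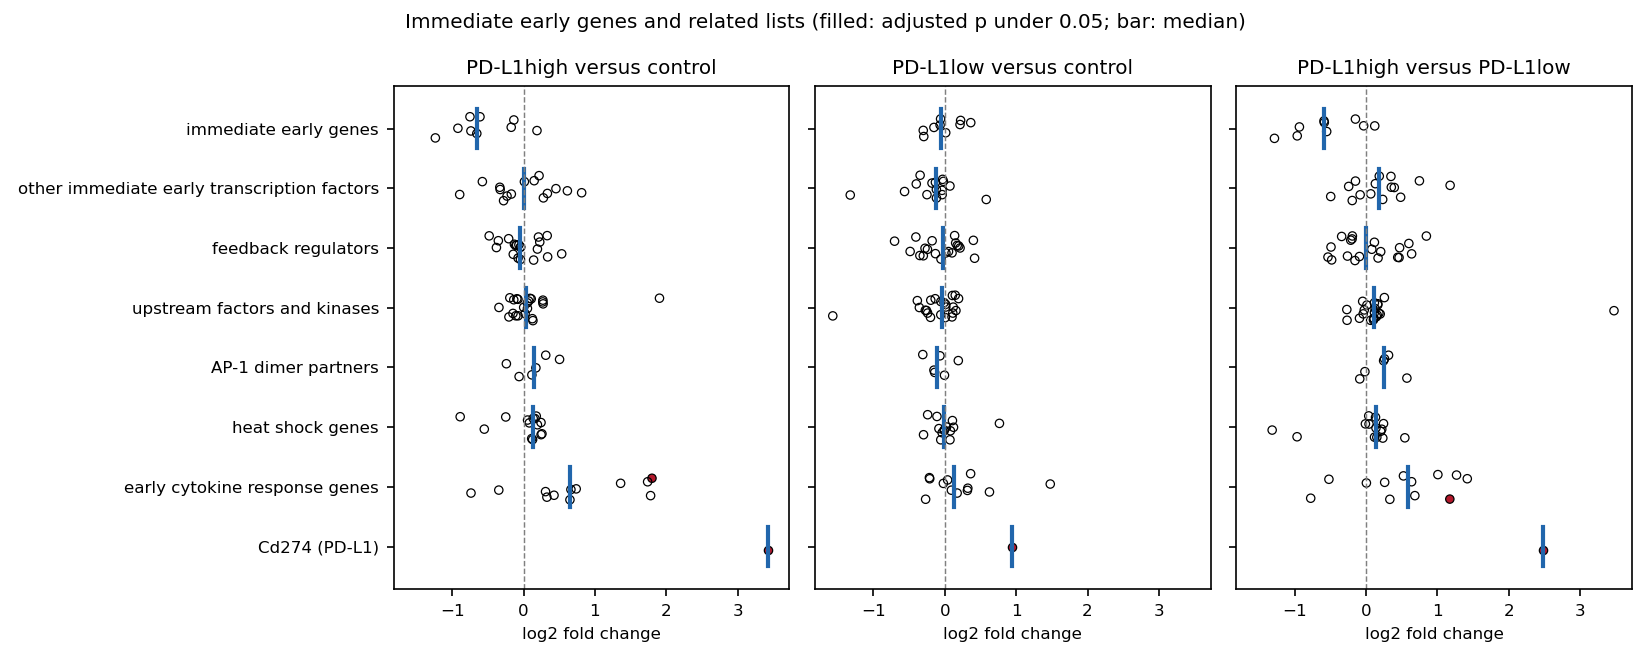
Log2 fold changes of the 9 tested immediate early genes, of the tested genes of 6 related lists and of Cd274 in the 3 comparisons; each point is a gene, filled points have an adjusted p under 0.05 in edgeR's test, and the vertical bar is the median of the list. The immediate early genes have medians of -0.65 and -0.58 in the comparisons of PD-L1high cells, and filled points occur only for Irf1 and Cd274.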

How the data were processed

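Expected counts and TPM per gene were made by the authors before deposit, with 1 library per file: strand-specific NuGEN Ovation Solo libraries, paired reads, STAR 2.5.2b on GRCm38.p6 with GenCode M23, and RSEM (version not given in the sources used here). The methods state that each n was an independent biological sample. Deposited expected counts were taken to the nearest whole number (at most 0.000388% of a library total). Deposited TPM values were used to order the genes by level. They also gave a second reading of Nr4a1, Ier2 and Jun and of the highest library of some members, without a test. The members and lists were chosen with earlier results of these data known.

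Genes were kept by filterByExpr with a count minimum of 10, which left 16252. edgeR 4.0.16 (R 4.3.3) fitted condition and replicate number to 11 libraries with TMM scaling and a robust quasi-likelihood fit, with Benjamini-Hochberg adjustment over all tested genes. The replicate number stood for the batch term of the study's methods, which is left undefined there. The procedure was tested on simulated data. Alternatives used DESeq2 1.42.0, limma-voom 3.58.1, other scalings, filters and left-out libraries. Gene positions come from GENCODE M21 and promoters from RefSeq. Named genes were all members, up to 3 genes of each list with the smallest p per comparison, the 6 genes most like Fos and like the mean profile, Cd274 and Irf1. Intervals cover the fitted spread between libraries. One gene is not reported here.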

Additional observations from a re-analysis of the deposited data

Results flagged for a closer look

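In control cells, Jun stood at 118 CPM in replicate 1, while the other 3 control libraries lay between 44.3 and 51.3 CPM, so 0.905 of the range of the group was the gap below the highest library. This was 1 of 20 groups of 4 libraries (10 genes in PD-L1high and control cells) examined in this way, and chance sets apart about 1 group in 20. Jun was also high in PD-L1high replicate 1, at 101 CPM.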

How the results depend on the processing

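Nr4a1, Ier2, Fosb, Fos, Egr1 and Fosl2 kept negative log2 fold changes in both comparisons of PD-L1high cells under all 26 alternatives. Over the members, 49 of 702 values turned direction, none of them called, in 11 of 27 results. Leaving out libraries or replicate numbers gave, for PD-L1low versus control, -0.18 to 0.80 for Fos, -0.14 to 0.75 for Fosb, -0.25 to 0.31 for Fosl2, -0.12 to 0.10 for Junb, -0.52 to 0.40 for Egr1 and -0.34 to 0.041 for Ier2. For PD-L1high versus PD-L1low it gave -0.18 to 0.11 for Jun and -0.044 to 0.25 for Jund, and for PD-L1high versus control -0.26 to 0.034 for Junb. With only the 2 groups compared, Egr1 became 0.17 in PD-L1low versus control and Jun 0.043 in PD-L1high versus PD-L1low, and with limma-voom Junb became -0.0033 in PD-L1low versus control; these causes were not tested.

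The replicate numbers were not shown to pair the libraries. Deviations of libraries with the same number correlated at -0.329 to 0.408 (median 0.124, 10 pairs). Those of other libraries correlated at -0.352 to 0.334 (median -0.036, 30 pairs). The ranges overlapped, while 6 of the 10 and 7 of the 30 pairs lay above 0.1. Without the replicate block, edgeR called 0, 0 and 0 members in PD-L1high versus control, PD-L1low versus control and PD-L1high versus PD-L1low, and 127, 12 and 88 of all genes. Values that turned without the block, by edgeR and DESeq2, were -0.11 and -0.12 for Fos, -0.079 and -0.083 for Jun and -0.30 and -0.30 for Junb in PD-L1low versus control, and 0.22 and 0.22 for Jun and 0.083 and 0.078 for Junb in PD-L1high versus PD-L1low.

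Members called in PD-L1high versus control were 0, but 5 with no filter, 3 with limma-voom and 1 with DESeq2 without the block; leaving out libraries gave 0 to 0. In PD-L1high versus PD-L1low they were 0, but 3 with no filter (Egr1, Fos and Fosb) and 1 each with DESeq2, limma-voom and only the 2 groups; leaving out libraries gave 0 to 1. Between replicate numbers they were 1, but 2 with library size only, 5 with no filter and 3 with DESeq2; leaving out gave 0 to 2. Of all genes, 161 were called in PD-L1high versus control, but 328 with no filter, 249 with DESeq2 and 245 with limma-voom (93 to 269 with libraries left out). In PD-L1low versus control 13 were called, but 20 with library size only, 91 with no filter, 47 with DESeq2, 22 with DESeq2 without the block, 27 with limma-voom and 33 with only the 2 groups (8 to 43). In PD-L1high versus PD-L1low 119 were called, but 354, 202 and 180 with no filter, DESeq2 and limma-voom (64 to 143). Between replicate numbers 65 were called, but 1358 with no filter and 757 with DESeq2 (10 to 219). The causes were not tested. Among the members, Npas4, with 80 counts in all, was too shallow to test.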
